A study of Homo sapiens with 6 samples.

Results

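The 46 genes described here act in mitosis and in the spindle checkpoint, and they were taken from the deposited gene table by symbol. Each symbol matched 1 of the 57905 genes of the table, and all 46 were among the 15343 genes that had enough reads to be tested. They were measured by poly(A) RNA-seq in HK-2 cells, an immortalized cell line from human proximal tubule. Of 6 libraries, 3 came from cells given a non-targeting siRNA pool (control siRNA) and 3 from cells given a SMARTpool that targets INO80 (INO80 siRNA), the ATPase of a chromatin remodeling complex. Both pools were delivered with RNAiMAX, and RNA was taken after 48 h. The cell line is labelled wild type, and no other agent or allele is named for either group. HK-2 cells were immortalized with papillomavirus E6 and E7 genes, which inactivate p53 and the retinoblastoma protein, and both groups carry them. A pool of siRNAs does not separate the effect of one siRNA from that of another.

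Mitosis genes are transcribed in waves that peak as cells pass from S phase to division. Cyclin B and CDK1 drive entry into mitosis, kinetochores attach chromosomes to the spindle, and the spindle checkpoint holds back the anaphase-promoting complex until all chromosomes are attached. Many of these genes are repressed in resting cells by the DREAM complex and activated in dividing cells by MuvB with B-MYB and FOXM1, through a promoter element called the cell cycle genes homology region (CHR), often near CCAAT boxes bound by NF-Y.

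The letters of these elements were present in the promoters of genes that moved in either direction. RefSeq promoter windows (GRCh38.p14, 250 bases before to 50 after the start) were found for 38 of the 46 genes, with 52 windows in all. The 100 bases before the start are shown 5′ to 3′ for 6 genes with 1 window each, because they include genes that were higher and genes that were lower in the fit with the replicate block described further on. Capitals mark CHR letters (TTTGAA) and CCAAT letters, which read ATTGG on the other strand.
CCNB2, chr15:59105046-59105145, + strand: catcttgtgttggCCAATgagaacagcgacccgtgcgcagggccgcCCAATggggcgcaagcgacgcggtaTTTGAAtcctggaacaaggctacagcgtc
KIF23, chr15:69414249-69414348, + strand: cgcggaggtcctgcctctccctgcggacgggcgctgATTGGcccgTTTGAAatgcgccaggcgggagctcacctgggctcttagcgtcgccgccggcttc
KIF4A, chrX:70290004-70290103, + strand: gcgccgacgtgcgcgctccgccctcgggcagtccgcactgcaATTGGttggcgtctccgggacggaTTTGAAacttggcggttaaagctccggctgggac
NCAPG, chr4:17810879-17810978, + strand: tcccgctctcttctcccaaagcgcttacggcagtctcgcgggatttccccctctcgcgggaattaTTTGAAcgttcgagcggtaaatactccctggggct
PLK1, chr16:23678789-23678888, + strand: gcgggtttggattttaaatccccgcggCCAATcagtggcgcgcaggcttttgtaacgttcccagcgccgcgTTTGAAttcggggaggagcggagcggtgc
SPC24, chr19:11155783-11155882, - strand: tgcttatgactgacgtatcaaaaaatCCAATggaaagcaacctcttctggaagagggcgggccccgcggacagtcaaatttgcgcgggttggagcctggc

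In CCNB2 and PLK1 the CHR letters began 29 bases before the start, in KIF4A 34 bases, in NCAPG 35 bases and in KIF23 55 bases before it. CCNB2, KIF4A, KIF23 and NCAPG were higher with the replicate block, and PLK1 was lower. SPC24, which was also lower, held 3 CCAAT matches and no CHR letters in its window.

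**Figure D1:**
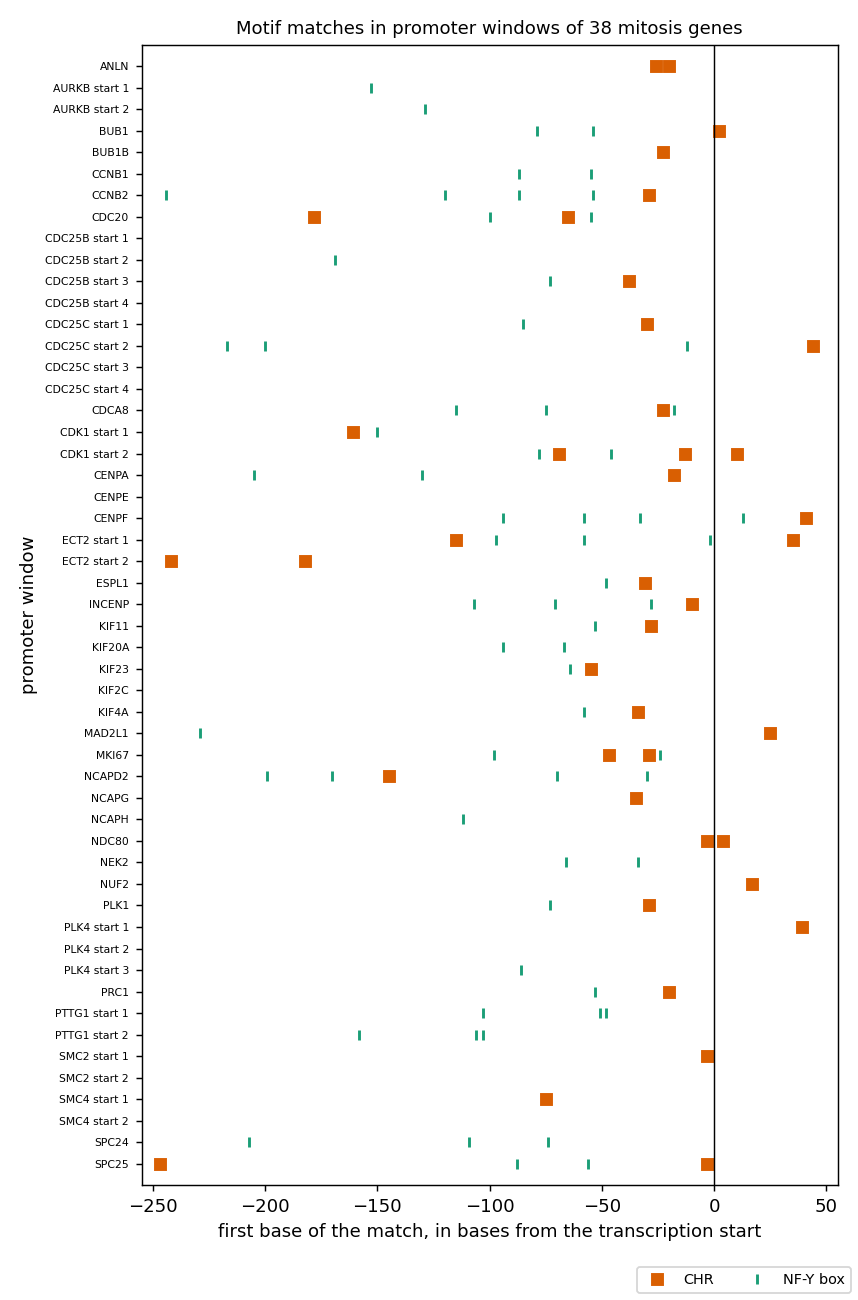
Positions of CHR and CCAAT (NF-Y box) letters in the 52 promoter windows of 38 mitosis genes, one window a line, with the distance in bases from the transcription start on the x axis. Matches within 100 bases before the start were present in 19 windows for CHR and in 26 windows for CCAAT.

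Searched on both strands as TTTGAA or TTCGAA, CHR letters were present in 32 of the 52 windows (61.5%), against 16.4% of all 35116 windows of the RefSeq table. CCAAT was present in 34 windows (65.4%), against 34.6% of all windows. Both were present in 23 windows (44.2%, against 6.38%), and matches of the 2 motifs may share bases. Within the last 100 bases before the start, both were present in 14 windows (26.9%, against 0.988%). E2F letters (TTTCCCGC, TTTGGCGC, TTTCGCGC or TTTCCGCC, both strands) were present in 3 windows (5.77%, against 4.05%). A match is a description of the letters and not a site. Among the 15 genes with a window that were higher with the replicate block, 10 held CHR letters, as did 2 of the 3 that were lower and 17 of the 20 that were not called.

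INO80 itself was read first. Its level was 46.3, 49.3 and 54.0 CPM (the read count of a gene scaled to library size, with TMM factors) in control replicates 1, 2 and 3, and 13.8, 12.1 and 14.2 CPM in INO80 siRNA replicates 1, 2 and 3. The groups did not overlap, and the level under INO80 siRNA was 0.267 of control (log2 fold change -1.90, SE 0.096, edgeR quasi-likelihood test with Benjamini-Hochberg adjustment over all tested genes, adjusted p = 0.000161). Between 16829273 and 20311588 reads were counted on genes in the control libraries and between 20678008 and 23784599 in the INO80 siRNA libraries. Of 12 proximal tubule markers only GGT1 and MME reached 1 FPKM (fragments per kilobase of exon, scaled to library size), and LRP2, SLC22A6, SLC22A8 and HNF4A were at 0 in all libraries. Of 6 epithelial markers 5 reached 1 FPKM (CDH1 did not), and of 7 markers of other cell types in the table only COL1A1 did. The summed level of the proximal tubule list was 34.7 to 43.8 FPKM under control siRNA and 38.1 to 46.1 FPKM under INO80 siRNA, that of the epithelial list was 415.9 to 463.0 and 371.0 to 459.4 FPKM, and that of the other cell types was 4.46 to 4.97 and 5.00 to 6.35 FPKM.

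The mitosis genes were well expressed in HK-2 cells. Their mean level over the 6 libraries ranged from 2.94 FPKM (CDC25C) to 90.0 FPKM (TPX2), with a median of 24.4 FPKM, and the median gene stood at percentile 86.8 of the tested genes. Single libraries held between 107 and 12606 reads of a member. The 46 genes together took 0.552 to 0.641% of the counts under control siRNA and 0.583 to 0.666% under INO80 siRNA. Their summed level was 5670, 6264 and 6366 CPM in control replicates 1, 2 and 3, and 5995, 6536 and 6537 CPM in INO80 siRNA replicates 1, 2 and 3. In each group replicate 1 was the lowest, and the groups overlapped, with 6100 ± 376 CPM (SD, n = 3) under control siRNA and 6356 ± 313 CPM (SD, n = 3) under INO80 siRNA. In RNA from a bulk culture, fewer dividing cells and less RNA per cell cannot be told apart.

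Small differences between the groups stood on a larger difference between replicates. Replicate 1 was below the mean of replicates 2 and 3 in both groups for 40 of the 46 genes, against 35% of all tested genes. This was not particular to the 46 genes. Among lists described further on, it held for 39 of 44 DNA replication genes and 21 of 31 other genes of mitotic entry and spindle. It held for 11 of 15 genes of cohesin, shugoshin and condensin II and 16 of 29 other kinetochore and centromere genes. For MuvB and DREAM regulators the count was 8 of 14, and for the anaphase-promoting complex 6 of 17. Control replicate 1 was the lowest control library for 39 of the 46 genes, against 39.2% of all tested genes. INO80 siRNA replicate 1 was the lowest of its group for 38 of the 46, against 39.0% of all tested genes. The median deviation of the members from their own mean was -0.15, 0.01 and 0.03 (log2) in the control libraries and -0.06, 0.07 and 0.08 in the INO80 siRNA libraries. The gap between replicate 1 and the other two was larger in size than the log2 fold change between groups for 33 genes in the control group and for 29 genes in the INO80 siRNA group. What sets replicate 1 apart is not given by the labels and was not tested.

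**Figure D2:**
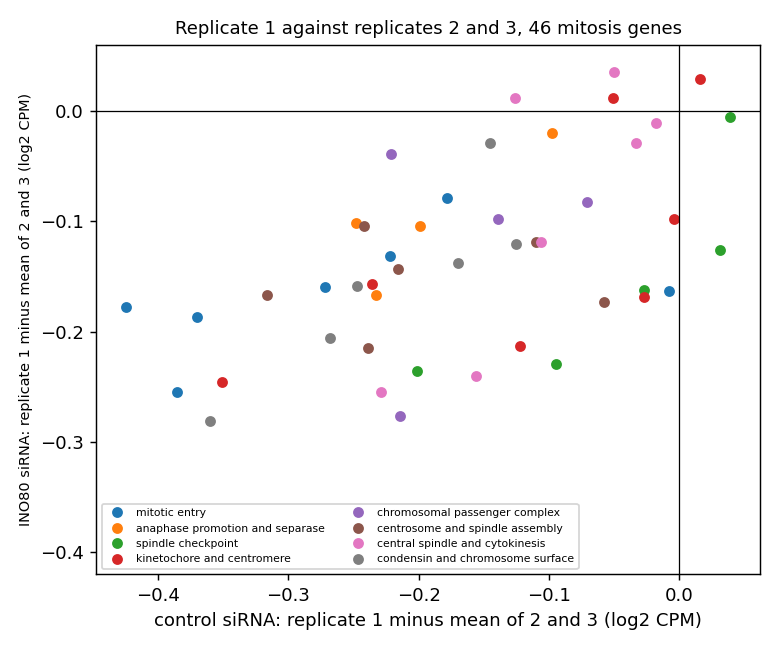
Gap between replicate 1 and the mean of replicates 2 and 3 in log2 CPM for each of the 46 mitosis genes (points, coloured by role), in the control group on the x axis and in the INO80 siRNA group on the y axis. Below and to the left of both zero lines lie the 40 genes that were lower in replicate 1 of both groups.

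**Figure D3:**
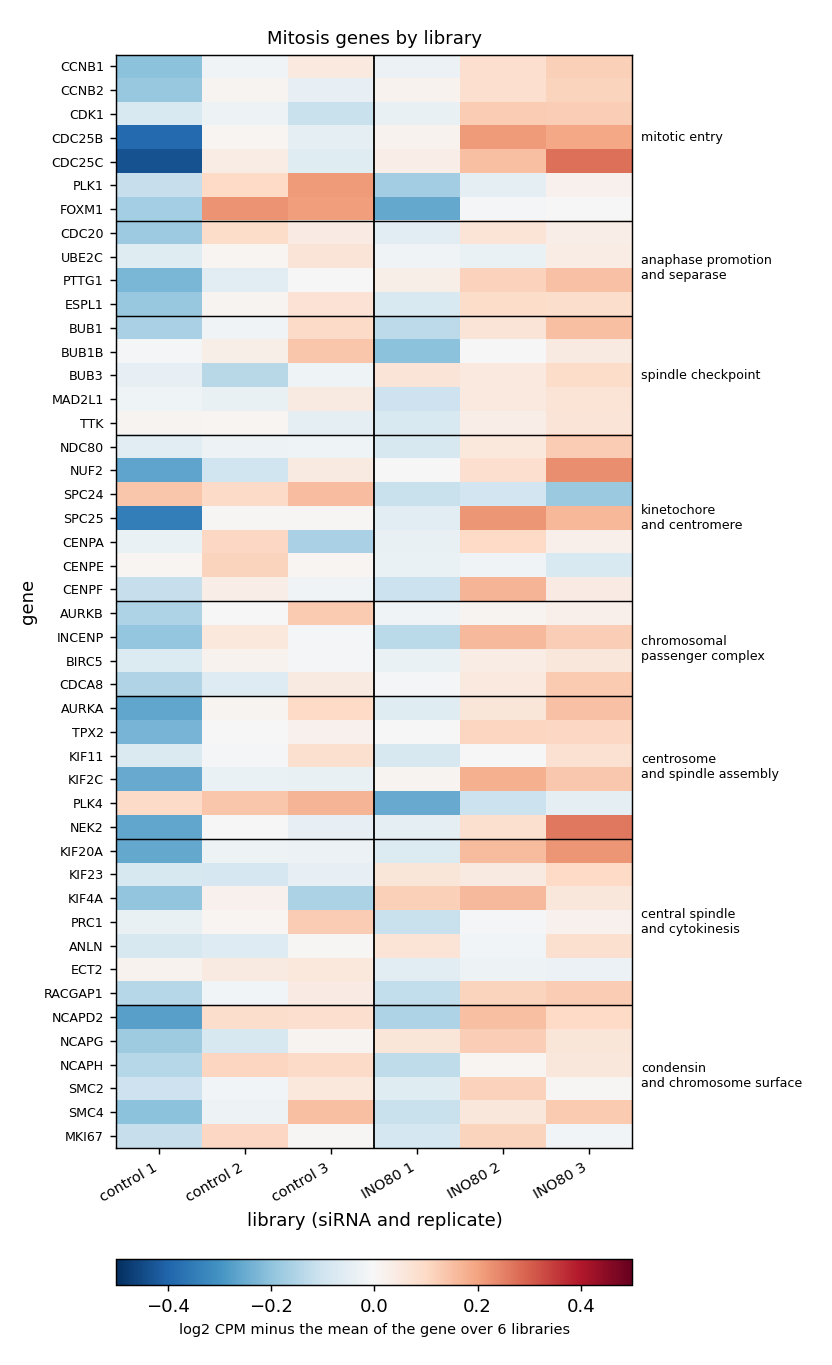
Level of each mitosis gene (lines) in each library (columns), as log2 CPM minus the mean of the gene over the 6 libraries, ordered by role. The columns of replicate 1 are mostly blue in both groups, with median deviations of -0.15 and -0.06, while PLK4 and SPC24 are red in all 3 control libraries and blue in all 3 INO80 siRNA libraries.

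Without the replicate number in the model, no mitosis gene differed between the groups after adjustment. In edgeR's quasi-likelihood test with Benjamini-Hochberg adjustment, 0 of 46 genes were lower and 0 were higher at an adjusted p under 0.05, against 1.49% and 0.261% of all tested genes (1.75% in either direction), and the lowest adjusted p was 0.106 (PLK4). DESeq2 without the block also called 0 of the 46, against 3.28% of all tested genes lower and 0.873% higher. Limma called 0 of the 46, against 0.437% lower and 0.0587% higher on log2(FPKM + 0.1), and 0.45% and 0.0717% on log2(FPKM + 1). At shares as low as those of limma, a count of 0 among 46 genes says little about these genes. At an unadjusted p under 0.05, 2 of the 46 genes were lower (4.35%, against 9.2% of all tested genes) and 7 were higher (15.2%, against 7.18%). The 95% interval of the log2 fold change lay within ±0.5 for 44 of the 46 genes, and the absolute log2 fold change was under 0.3 for all 46.

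Libraries of the same replicate number deviated together, and the edgeR fit in which the replicate number was a block called 21 of the 46 genes (45.7%, against 24.8% of all tested genes). Of these, 17 were higher under INO80 siRNA (37%, against 11.4% of all tested genes) and 4 were lower (8.7%, against 13.4%). The 46 genes were measured with smaller errors than most genes. The median SE in this fit was 0.042 for them and 0.076 over all tested genes, at median levels of 24.4 and 4.6 FPKM. How far this difference in precision enters the shares was not tested. The genes that were higher were CCNB1, CCNB2, CDK1, CDC25B, PTTG1, BUB3, NUF2, SPC25, CDCA8, TPX2, KIF2C, NEK2, KIF20A, KIF23, KIF4A, ANLN and NCAPG. The genes that were lower were PLK1, FOXM1, SPC24 and PLK4. The counts moved with the pair left out, as did those over all tested genes. Without replicate 1, 14 were higher (against 11.3% of all tested genes) and 6 lower (against 14.1%). Without replicate 2 the counts were 9 (against 7.23%) and 2 (against 9.76%). Without replicate 3 they were 8 (against 6.19%) and 1 (against 8.42%). CDC25B, NUF2, TPX2, KIF2C, KIF20A, KIF4A and PLK4 passed in all 6 other blocked fits. Among these was blocked DESeq2, in which 7 of the 46 genes were higher (against 4.5% of all tested genes) and 2 lower (against 7.57%). CCNB2 and ANLN passed in 1 of the 6, CCNB1, SPC25 and CDCA8 in 2, and the other 9 called genes in 3 to 5. The labels do not say whether replicates were separate cultures, so the p-values measure the spread between these libraries, which may be technical.

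**Figure D4:**
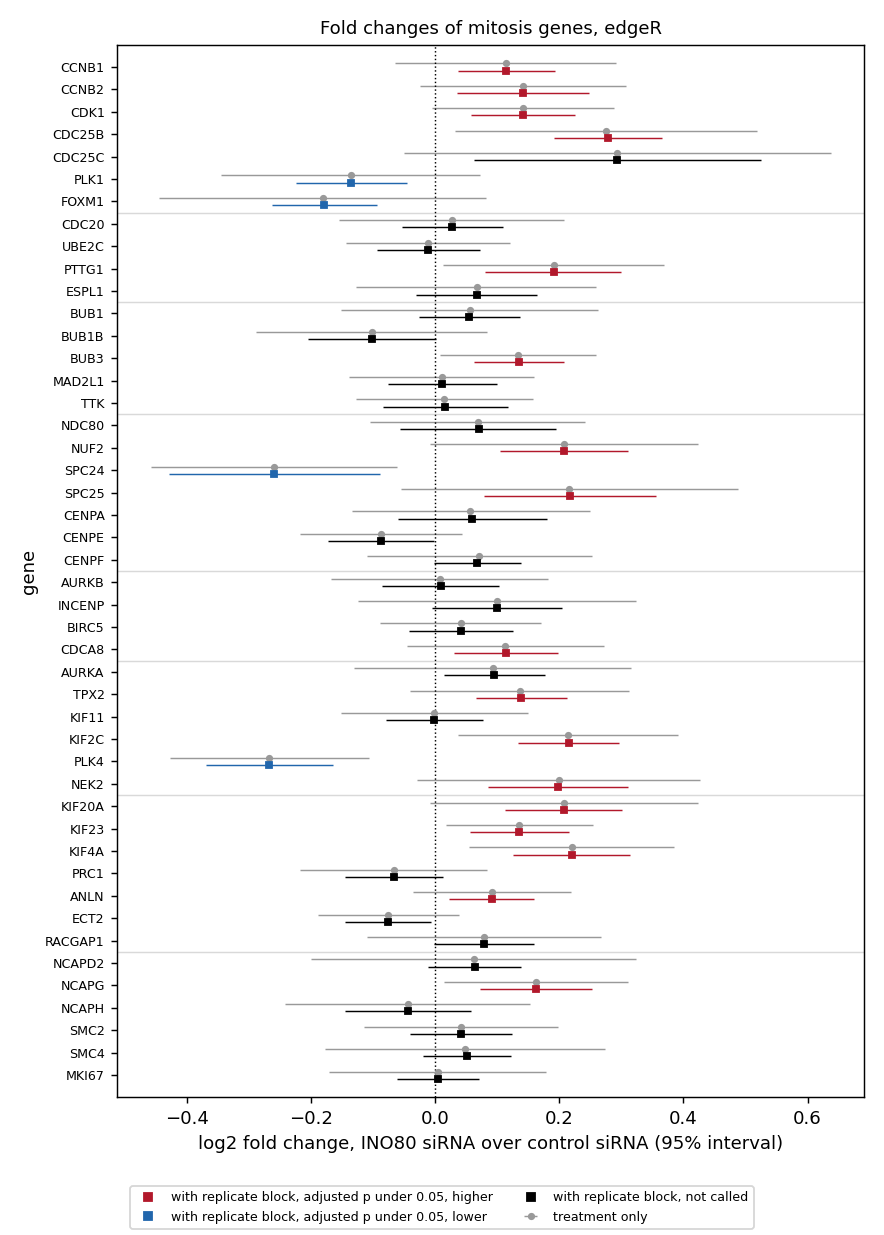
Log2 fold change (INO80 siRNA over control siRNA) with its 95% interval from edgeR for the 46 mitosis genes, without the block (grey circles) and with the replicate block (squares, red where higher and blue where lower at an adjusted p under 0.05). The estimates of both fits nearly coincide and the intervals are narrower with the block, in which 17 genes are red and 4 are blue.

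The log2 fold change was above 0 for 35 of the 46 genes (76.1%, against 51.5% of all genes), and their median was 0.07, against 0.01 over all tested genes. By replicate pair the median was 0.08, 0.08 and 0.06. The level was higher under INO80 siRNA in 3 of 3 pairs for 26 genes (56.5%, against 26.8%) and lower in 3 of 3 pairs for 8 genes (17.4%, against 25.9%). The 3 libraries of each group did not overlap for 8 genes that were higher (17.4%, against 11.3%) and 4 that were lower (8.7%, against 11.5%). The median moved with single libraries, to 0.03 without control replicate 1, 0.12 without control replicate 3, 0.13 without INO80 siRNA replicate 1, and 0.04 without INO80 siRNA replicate 2 or replicate 3. These fits had no block and left 1 library without its pair. With a whole pair left out of the blocked fit, the median was 0.062 without replicate 1, 0.063 without replicate 2 and 0.087 without replicate 3.

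Among the 7 genes of mitotic entry, 4 were higher (57.1%, against 11.4% of all tested genes) and 2 were lower (28.6%, against 13.4%) with the replicate block. CDC25B, a phosphatase that activates CDK1, is encoded at chr20:3767578-3786762 on the + strand (coordinates of genes in the table are GRCh37). Its level was 98.6, 129.8 and 125.1 CPM in control replicates 1, 2 and 3, and 130.7, 149.6 and 147.8 CPM in INO80 siRNA replicates 1, 2 and 3. The groups did not overlap, but control replicate 2 was only just below INO80 siRNA replicate 1. The log2 fold change was 0.28 with and without the block, with an SE of 0.042 in the blocked fit (edgeR, Benjamini-Hochberg adjusted p = 1.88e-05) and of 0.11 without the block (edgeR adjusted p = 0.246). CDC25C, the other CDK1 phosphatase of the list, had the highest log2 fold change of the 46 genes, 0.29, but was the least abundant and did not pass (edgeR adjusted p = 0.388, and 0.0574 with the block). CDC25C overlaps FAM53C on the other strand, which had more reads (mean count 999 against 189) and a log2 fold change of 0.25, and the part of FAM53C in the counts of CDC25C was not tested.

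CDK1, the kinase that starts mitosis, was measured at 145.1, 150.4 and 141.6 CPM under control siRNA and at 148.8, 166.8 and 166.4 CPM under INO80 siRNA. Its groups overlapped, since INO80 siRNA replicate 1 was below control replicate 2. The log2 fold changes of CDK1 and of its partners cyclin B1 and cyclin B2 (CCNB1, CCNB2) were 0.14, 0.11 and 0.14, and all of them were called higher only with the block (edgeR adjusted p = 0.0109, 0.0272 and 0.0471, against 0.324, 0.522 and 0.385 without it). CCNB1 was the most abundant gene of mitotic entry at a mean of 61.0 FPKM.

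PLK1, a kinase needed from mitotic entry to cytokinesis, and FOXM1, the transcription factor that activates many genes of the list, were lower with the block. FOXM1 was measured at 105.4, 138.5 and 137.0 CPM under control siRNA and at 99.2, 118.0 and 118.8 CPM under INO80 siRNA. Replicate 1 was the lowest library of each group, control replicate 1 fell among the INO80 siRNA libraries, and each INO80 siRNA library was below the control library of its own number. FOXM1 had a log2 fold change of -0.18 (SE 0.041 with the block, edgeR adjusted p = 0.00203, against 0.489 without the block). For PLK1 it was -0.14 (SE 0.044 with the block, edgeR adjusted p = 0.0244, against 0.515 without it). FOXM1 overlaps RHNO1 and ITFG2 on the other strand, whose log2 fold changes were -0.05 and -0.03.

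Among the 4 genes of anaphase promotion and separase, 1 was higher (25%, against 11.4% of all tested genes) and none was lower (against 13.4%) with the block. It was PTTG1, or securin, the inhibitor of separase, at 40.0, 45.0 and 46.8 CPM under control siRNA and 47.8, 50.9 and 51.9 CPM under INO80 siRNA. The groups did not overlap, and the log2 fold change was 0.19 (SE 0.053 with the block, edgeR adjusted p = 0.00922, against 0.27 without the block). Separase itself (ESPL1) had a log2 fold change of 0.07, with a 95% interval of -0.03 to 0.17 in the blocked fit. CDC20, an activator of the anaphase-promoting complex and a target of the checkpoint, was the most abundant of the group at a mean of 77.4 FPKM, with a log2 fold change of 0.03 (interval -0.05 to 0.11 with the block).

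Among the 5 spindle checkpoint genes, 1 was higher with the block (20%, against 11.4% of all tested genes) and none was lower (against 13.4%). BUB3, a WD-repeat protein of the mitotic checkpoint complex, was measured at 232.2, 217.2 and 235.3 CPM under control siRNA and at 249.7, 247.3 and 254.4 CPM under INO80 siRNA. Its groups did not overlap, and the first replicate was not the lowest control library. For BUB3 the log2 fold change was 0.13 (SE 0.035 with the block, edgeR adjusted p = 0.00545, against 0.273 without the block). BUB1B, which encodes the BUBR1 subunit of the same complex, was lower in 3 of 3 pairs at a log2 fold change of -0.10 and did not pass in either fit (edgeR adjusted p = 0.145 with the block and 0.597 without it). The other checkpoint genes had log2 fold changes between 0.01 and 0.06.

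The 7 genes of kinetochore and centromere went both ways, and this included the 4 subunits of the NDC80 complex, which binds microtubules. SPC24 (chr19:11242196-11266484, - strand) was measured at 18.0, 17.4 and 18.2 CPM under control siRNA and at 15.1, 15.3 and 14.4 CPM under INO80 siRNA. Every INO80 siRNA library was below every control library, with less spread within the groups than between them. SPC24 overlaps a gene on the other strand that had many more reads. The part of that gene in the counts of SPC24 was not tested. For SPC24 the log2 fold change was -0.26 (SE 0.083 with the block, edgeR adjusted p = 0.022, against 0.185 without the block).

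Its partner subunits had log2 fold changes of the other sign. NUF2 was measured at 45.9, 51.5 and 56.9 CPM under control siRNA and at 55.1, 58.3 and 64.7 CPM under INO80 siRNA. These groups overlapped, while within each pair INO80 siRNA was higher. NUF2 and SPC25 had log2 fold changes of 0.21 and 0.22 (edgeR adjusted p = 0.0029 and 0.0186 with the block, against 0.324 and 0.421 without it). The difference between SPC24 and its partners was not tested. CENPF, a large kinetochore protein that accumulates in G2, was the most abundant of the group at 39.9 FPKM and had a log2 fold change of 0.07 (edgeR adjusted p = 0.149 with the block).

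Of the 4 genes of the chromosomal passenger complex, which corrects faulty attachments and directs cytokinesis, all had log2 fold changes above 0, from 0.01 to 0.11. With the block 1 of them was higher (25%, against 11.4% of all tested genes). CDCA8, or borealin, which helps to target the complex to centromeres, was measured at 93.9, 99.5 and 107.4 CPM under control siRNA and at 103.6, 107.8 and 114.1 CPM under INO80 siRNA. The groups overlapped, and the log2 fold change was 0.11 (SE 0.041 with the block, edgeR adjusted p = 0.0427, against 0.471 without the block). INCENP, the scaffold of the complex, had a log2 fold change of 0.10 and did not pass (edgeR adjusted p = 0.165 with the block). AURKB, its kinase, had a log2 fold change of 0.01, with a 95% interval of -0.09 to 0.10 in the blocked fit.

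Of the 6 genes of centrosome and spindle assembly, 3 were higher (50%, against 11.4% of all tested genes) and 1 was lower (16.7%, against 13.4%) with the block. PLK4 (chr4:128802016-128820350, + strand), the kinase that starts centriole duplication, had the most negative log2 fold change of the 46 genes. It was measured at 61.8, 63.6 and 65.1 CPM under control siRNA and at 48.6, 53.7 and 55.9 CPM under INO80 siRNA. All INO80 siRNA libraries were below all control libraries. The log2 fold change was -0.27 (0.831 of the control level, SE 0.050 with the block, edgeR adjusted p = 0.000241, against 0.106 without the block), and it ranged from -0.31 to -0.21 when any 1 library was left out.

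KIF2C (chr1:45205490-45233439, + strand), a kinesin that depolymerizes microtubules at centromeres, was measured at 109.5, 127.4 and 127.1 CPM under control siRNA and at 131.6, 147.4 and 143.4 CPM under INO80 siRNA. The groups did not overlap, and replicate 1 was the lowest library in each. Its log2 fold change was 0.21 (SE 0.039 with the block, edgeR adjusted p = 0.000189, against 0.217 without the block). TPX2, which activates Aurora A on the spindle and was the most abundant of all 46 genes, had a log2 fold change of 0.14 (edgeR adjusted p = 0.00484 with the block, 0.434 without it). NEK2, a kinase that separates centrosomes, had a log2 fold change of 0.20 (edgeR adjusted p = 0.00882 with the block, 0.375 without it). KIF11, the kinesin that pushes the spindle poles apart, was chosen after its values were seen because it changed least, with a log2 fold change of 0.00 and an interval of -0.08 to 0.08 with the block, and its sign turned with the scaling.

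Of the 7 genes of central spindle and cytokinesis, 4 were higher (57.1%, against 11.4% of all tested genes) and none was lower (against 13.4%) with the block. KIF4A (chrX:69509879-69640682, + strand), a kinesin that sets the length of central spindle microtubules, was measured at 70.7, 82.2 and 72.6 CPM under control siRNA and at 88.0, 90.6 and 84.2 CPM under INO80 siRNA. KIF23 (chr15:69706585-69740764, + strand), a kinesin of the centralspindlin complex, was measured at 124.4, 124.1 and 127.8 CPM under control siRNA and at 137.1, 135.6 and 140.8 CPM under INO80 siRNA. For both genes every INO80 siRNA library was above every control library, and KIF23 varied little within the groups (SD 2.07 and 2.63 CPM, n = 3 each).

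The log2 fold change of KIF4A was 0.22 (SE 0.046 with the block, edgeR adjusted p = 0.000793, against 0.179 without the block), and that of KIF23 was 0.14 (SE 0.039 with the block, edgeR adjusted p = 0.0103, against 0.241 without the block). KIF20A, a kinesin that brings the passenger complex to the midzone, had a log2 fold change of 0.21 (edgeR adjusted p = 0.00129 with the block, 0.325 without it). ANLN, an actin-binding protein of the contractile ring and the most abundant of the group at 70.1 FPKM, had one of 0.09 (edgeR adjusted p = 0.0449 with the block, 0.466 without it). KIF20A (mean count 1550) shares bases with CDC23 and BRD8 on the other strand (mean counts 997 and 1003, log2 fold changes -0.24 and 0.23). KIF4A shares bases with PDZD11 on the other strand (mean count 1185 against 1706, log2 fold change 0.10). The part of these genes in the counts of KIF20A and KIF4A was not tested. Reads of KIF4A may also be divided with KIF4B, a near-identical copy with a mean count of 18.7 against 1706.

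Of the 5 condensin I genes and MKI67, 1 was higher with the block (16.7%, against 11.4% of all tested genes). NCAPG, a subunit of condensin I, which compacts mitotic chromosomes, was measured at 96.2, 103.0 and 109.9 CPM under control siRNA and at 113.7, 118.7 and 113.4 CPM under INO80 siRNA. The groups did not overlap. For NCAPG the log2 fold change was 0.16 (SE 0.044 with the block, edgeR adjusted p = 0.0071, against 0.262 without the block). NCAPG overlaps LCORL on the other strand, which had a mean count of 453 against 2284 and a log2 fold change of -0.13. The ATPase subunits SMC2 and SMC4, which condensin II shares, had log2 fold changes of 0.04 and 0.05 and did not pass (edgeR adjusted p = 0.498 and 0.311 with the block). MKI67, which encodes the proliferation marker Ki-67 and was chosen after its values were seen, was measured at 431.6, 501.8 and 470.0 CPM under control siRNA and at 439.4, 504.5 and 463.2 CPM under INO80 siRNA. Its libraries ranked in the same order in both groups, and the log2 fold change was 0.00, with an interval of -0.06 to 0.07 with the block.

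The 150 genes of 6 other lists place these values among related genes. Of 31 other genes of mitotic entry and spindle, 8 were higher and 0 were lower with the block (median log2 fold change 0.06, and 0 calls without the block, where 5 had an unadjusted p under 0.05). Among them WEE1, the kinase that inhibits CDK1, TACC3, a spindle protein, and PBK, a mitotic kinase, had log2 fold changes of 0.23, 0.23 and 0.31 (edgeR adjusted p = 0.000509, 0.000282 and 0.000386 with the block, 0.13, 0.139 and 0.185 without it). That is 25.8% higher and 0% lower, against 11.4% and 13.4% of all tested genes in the same fit. The balance over all genes turned with total count scaling and the block, to 13.5% higher and 13% lower.

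Of 29 other kinetochore and centromere genes, 6 were lower (20.7%, against 13.4% of all tested genes) and 4 higher (13.8%, against 11.4%) with the block (median 0.01), shares near those of all genes. SKA2, a subunit of the SKA complex that couples kinetochores to microtubules, was measured at 90.6, 90.4 and 89.1 CPM under control siRNA and at 62.6, 68.1 and 69.5 CPM under INO80 siRNA, and it fell also without the block (log2 fold change -0.43, SE 0.061, edgeR adjusted p = 0.0184). That call was lost without control replicate 2, control replicate 3 or INO80 siRNA replicate 3, where edgeR called 0 genes of the 6 lists. ZWINT, a kinetochore scaffold, and MIS18A, which licenses centromeres for CENP-A loading, had log2 fold changes of -0.34 and -0.46 (edgeR adjusted p = 2.55e-07 and 0.000138 with the block, 0.0539 and 0.123 without it).

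Of 15 genes of cohesin, shugoshin and condensin II, 5 were lower (33.3%, against 13.4% of all tested genes) and 1 was higher (6.67%, against 11.4%) with the block (median -0.02). WAPL, which releases cohesin from chromosomes, NIPBL, which loads it, and the cohesin subunit STAG1 had log2 fold changes of -0.27, -0.23 and -0.22 (edgeR adjusted p = 1.29e-05, 0.000739 and 0.00108 with the block, 0.053, 0.141 and 0.327 without it). Of 17 genes of the anaphase-promoting complex, 6 were lower (35.3%, against 13.4%) and 2 higher (11.8%, against 11.4%) with the block (median -0.01). Its subunits ANAPC5 and ANAPC7 had log2 fold changes of -0.25 and 0.23, and its activator FZR1 had one of -0.29 (edgeR adjusted p = 1.65e-05, 0.000275 and 5.89e-05 with the block, 0.0572, 0.118 and 0.0797 without it).

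Of 14 MuvB and DREAM regulators, 5 were lower (35.7%, against 13.4% of all tested genes) and 1 was higher (7.14%, against 11.4%) with the block (median 0.00). TFDP1, the dimer partner of E2F factors, RBBP4 and LIN52, both subunits of MuvB, had log2 fold changes of -0.18, -0.18 and -0.35 (edgeR adjusted p = 0.000522, 0.00152 and 0.00732 with the block, 0.129, 0.26 and 0.248 without it). Of 44 DNA replication genes, 10 were lower (22.7%, against 13.4%) and 3 higher (6.82%, against 11.4%) with the block (median -0.08, and -0.07 without MCM2). MCM2, a subunit of the replicative helicase, was measured at 210.4, 279.3 and 265.1 CPM under control siRNA and at 95.3, 126.8 and 122.4 CPM under INO80 siRNA, and it fell also without the block (log2 fold change -1.13, SE 0.13, edgeR adjusted p = 0.00852). The call of MCM2 was lost without the same 3 libraries, each left out in turn, and 1 gene of the 6 lists was called without INO80 siRNA replicate 2 and with limma on FPKM. POLE2, a subunit of DNA polymerase epsilon, and cyclin E2 (CCNE2) had log2 fold changes of -0.31 and 0.41 (edgeR adjusted p = 0.00366 and 6.83e-05 with the block, 0.116 and 0.0574 without it). The difference between the mitosis genes and any of these lists was not tested.

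**Figure D5:**
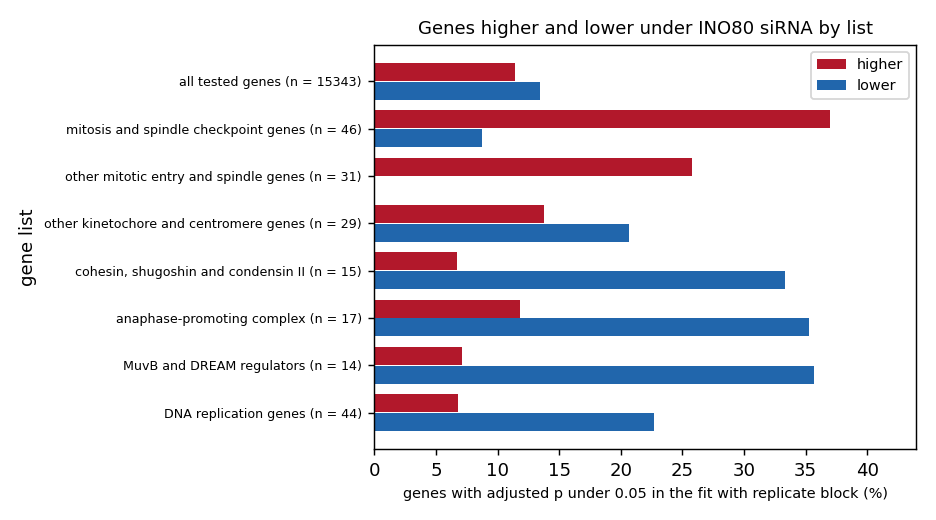
Share of genes (x axis, in percent) that were higher (red) or lower (blue) under INO80 siRNA at an adjusted p under 0.05 in the edgeR fit with the replicate block, for all tested genes, the 46 mitosis and spindle checkpoint genes and 6 other lists. The mitosis genes stand at 37% higher and 8.7% lower, against 11.4% and 13.4% of all tested genes, and the DNA replication genes at 6.82% and 22.7%.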

How the data were processed

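RNA-seq of 6 libraries (3 control siRNA, 3 INO80 siRNA, 48 h) was analysed. The authors deposited 1 gene table with raw read counts, FPKM values and other columns (coordinates, exonic length, annotation) for each gene. The deposited counts are whole numbers without normalization, and the deposited FPKM values equal counts divided by the deposited exonic length and library total (347430 of 347430 within 0.006). The submitters' processing notes name HISAT2 2.0.1, HTSeq and hg19, whereas the study's methods name ELAND and hg38. The table's coordinates are GRCh37. The library kit was directional, and the strand setting of the counting is not given in the sources used here. Without it, reads of overlapping genes on opposite strands may be mixed. Counting both strands, 9 of the 46 genes overlap a gene with a mean count of at least 0.1 times their own. For CENPA that gene lies on the same strand, so the strand setting does not bear on it.

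In R 4.3.3, edgeR 4.0.16 (filterByExpr, TMM, quasi-likelihood test, treatment as the only term) was fitted over all 15343 genes that passed the filter, and p-values were adjusted by Benjamini-Hochberg over them. A call is an adjusted p under 0.05. The study's statistics section gives a test for comparisons between groups in general, and none for the RNA-seq in particular. The replicate number was added as a block in an alternative fit. The titles number the libraries, and deviations of same-numbered libraries from their group means correlated over all genes at 0.56, 0.343 and 0.343 (different numbers at most 0.153), so the numbers were taken to pair the libraries. An exact permutation test of 3 against 3 cannot go below 0.1 and was not used. Other alternatives were median-ratio or total count scaling, other filters, DESeq2 1.42.0, limma 3.58.1 on log2(FPKM + 0.1) or log2(FPKM + 1), a fold limit of 1.5, and leaving out libraries. CPM values were computed from the counts with TMM factors, and motif letters were counted in a RefSeq promoter table.

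The 46 genes and the other lists were chosen with earlier results of these data known. Genes were named if they were called in either fit, had one of the 2 smallest p or the highest FPKM in their role, or were among the 3 highest or 3 lowest fold changes. Of each other list the 3 genes with the smallest p were named. Overlapping genes were named after their values were seen. No promoter window was used for AURKA, BIRC5, BUB3, FOXM1, RACGAP1, TPX2, TTK and UBE2C. One overlapping gene is not reported here.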

Additional observations from a re-analysis of the deposited data

How the results depend on the processing

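No alternative called a mitosis gene against the sign of its estimate in the fit without the block, and INO80 stayed lower in all alternatives. Without the block, 0 mitosis genes were lower and 0 higher under every scaling, tool and filter, except that CDC25B was higher with no filter on low counts (1 gene). With the replicate block 4 were lower and 17 higher, with median-ratio scaling 4 and 15, with total count scaling (chosen after seeing the data) 4 and 19, and with blocked DESeq2 2 and 7. Over fits that left out 1 library or 1 pair, 0 to 6 were lower and 0 to 14 higher. A blocked fit with a pair left out rests on 4 libraries. The cause of these differences was not tested.

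Over all tested genes, the calls lower and higher (228 and 40 without the block) were 2050 and 1748 with the block, 2108 and 1723 with median-ratio scaling and the block, 1998 and 2069 with total count scaling and the block, 516 and 192 with no filter, 503 and 134 with DESeq2, 1161 and 691 with blocked DESeq2, 67 and 9 with limma on log2(FPKM + 0.1), 69 and 11 on log2(FPKM + 1), and 73 and 7 at a fold change of at least 1.5. Leaving out libraries or pairs gave 18 to 2202 lower and 0 to 1776 higher. In the 6 other lists (2 lower and 0 higher without the block) they were 32 and 19 with the block, 33 and 19 with median-ratio scaling and the block, 29 and 25 with total count scaling and the block, 5 and 2 with no filter, 7 and 1 with DESeq2, and 20 and 13 with blocked DESeq2. In these lists 5 were lower when only genes averaging 1 FPKM or more were kept, 1 was lower with limma at either pseudocount, and 0 to 2 were lower with 1 library left out.

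The median log2 fold change of the mitosis genes (0.068) was 0.078 with total count scaling (with or without the block), 0.079 with no filter and 0.076 with limma on log2(FPKM + 0.1). It ranged from 0.027 to 0.126 with 1 library left out of the fit without the block. With 1 pair left out of the blocked fit it ranged from 0.062 to 0.087. Signs turned for 15 genes, none of which was called in the fits of the main text (AURKA was higher with total count scaling and the block). Their estimates lay between -0.04 and 0.09. KIF11 (-0.001) was at 0.0091 with total count scaling, 0.0089 with this and the block, 0.0098 with no filter, 0.0082 with limma on log2(FPKM + 0.1) and 0.0080 on log2(FPKM + 1). UBE2C was at 5.89e-05 with no filter, and MKI67 at -0.00053 when only genes averaging 1 FPKM or more were kept. With libraries or pairs left out the ranges were -0.051 to 0.081 for CDC20, -0.043 to 0.016 for UBE2C, -0.0062 to 0.12 for ESPL1, -0.0082 to 0.13 for BUB1, -0.028 to 0.063 for MAD2L1, -0.031 to 0.061 for TTK, -0.010 to 0.13 for CENPA, -0.062 to 0.076 for AURKB, -0.0049 to 0.16 for AURKA, -0.040 to 0.037 for KIF11, -0.048 to 0.15 for NCAPD2, -0.12 to 0.0066 for NCAPH, -0.0060 to 0.088 for SMC2, -0.036 to 0.14 for SMC4 and -0.051 to 0.057 for MKI67. In the blocked fits with 1 pair left out, AURKA, BUB1, ESPL1, NCAPD2, SMC4 and NCAPH kept their sign. AURKA ranged there from 0.045 to 0.121 and NCAPH from -0.074 to -0.014. The other genes with a range given here turned in those fits too. Of the values of single mitosis genes under all alternatives, 766 kept direction and side of the threshold, 113 kept direction and were called, and 41 changed sign.

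Read depth gave at least 107 reads of each mitosis gene in each library. With 3 libraries a group, the median SE of a log2 fold change was 0.078 without the block and 0.042 with it. Differences larger than these errors also failed to pass, such as PLK4 without the block.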
